A study of Mus musculus with 17 samples.

Results

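The replication-dependent histone genes of the mouse were followed in hippocampal RNA of control mice and of mice lacking the acetyltransferase CBP in forebrain excitatory neurons. Separate mice of each genotype were studied without and with kindling by pentylenetetrazol (PTZ). A gene was taken as a member when its Ensembl identifier belonged to a protein-coding gene with a symbol starting with Hist1h, Hist2h, Hist3h or Hist4h in the GENCODE M21 annotation of GRCm38, and no expression value entered this choice. The rule found 67 members among the 55471 genes of the count table. Of these, 54 had at least 1 count in any library and 13 were at 0 in every library. The members comprised 6 genes for the linker histone H1, 18 for H2A, 18 for H2B, 12 for H3 and 13 for H4, and 54 of them lie in the Hist1 cluster on chromosome 13, 10 in Hist2 on chromosome 3, 2 in Hist3 on chromosome 11 and 1 in Hist4 on chromosome 6.

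Each of the 17 libraries was total hippocampal RNA from 1 C57BL/6 mouse aged 3 to 6 months. The study's methods describe the saline-treated mice of this experiment as male. CBP-ifKO mice carry floxed Crebbp alleles and Camk2a-creERT2, a tamoxifen-inducible Cre driven by a promoter of forebrain excitatory neurons, so that interneurons, glia and vessels keep an intact Crebbp, and the recombined allele still makes a truncated CBP without its acetyltransferase domain. Control mice are littermates without the Cre according to the methods, although a label of the control samples names Camk2a_creERT2. All mice of both genotypes received tamoxifen. The groups were Sal (not kindled, saline on the last day), PTZ0 (kindled, saline on the last day) and PTZ45 (kindled, 45 mg/kg PTZ on the last day), and mice were killed for dissection of the hippocampus 45 min after that injection. PTZ blocks GABA-A receptors, and kindling is the repeated injection of a dose that is at first too low to cause convulsions. Kindled here names this schedule of injections and does not say that a mouse convulsed. There were 3 mice per group, and 2 in Control PTZ45, giving 8 Control and 9 CBP-ifKO libraries with 5831992 to 18735643 counts each. Control Sal and Control PTZ0 were sequenced in lane 3, Control PTZ45 and CBP-ifKO Sal in lane 4, and CBP-ifKO PTZ0 and CBP-ifKO PTZ45 in lane 5. Control PTZ0 against Sal and CBP-ifKO PTZ45 against PTZ0 are thus comparisons within 1 lane. Control PTZ45 and CBP-ifKO Sal share a lane but differ in both genotype and treatment. In every other comparison of 2 groups lane and group cannot be told apart.

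The labels were first checked on the targeted gene. Crebbp lay between 1824 and 2429 normalized counts (read counts divided by a size factor of the library) in the 8 Control libraries and between 1061 and 1337 in the 9 CBP-ifKO libraries, whose mean was 55.9% of the Control mean. Esr1, part of which is carried by the creERT2 transgene, lay between 41 and 77.8 in Control and between 703 and 941 in CBP-ifKO. No 2 libraries of a group had counts that agreed within sampling noise.

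Replication-dependent histone genes supply the core histones H2A, H2B, H3 and H4 and the linker histone H1 that package new DNA in S phase. They have no introns in their coding part, and their mRNA ends in a conserved stem-loop instead of a poly(A) tail. The stem-loop is bound by SLBP, and cleavage after it needs the U7 small nuclear RNP, of which LSM11 is a subunit. Most hippocampal neurons no longer divide. RNA of these genes in adult tissue can come from the few dividing cells, such as neural progenitors, oligodendrocyte precursors and microglia, or from transcripts of some members that read on to a poly(A) signal downstream. In bulk RNA, fewer cells that express a gene and less RNA of it per cell cannot be told apart.

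The stem-loop was found in the annotated transcript of 46 members. A 16-base element with 6 paired bases at each end, of the form GGNNNNTNTNNNNNCC, was searched on the transcript strand within 200 bases after the stop codon. Of the members, 52 have at least 20 annotated bases after the stop codon, and 6 of those held no such element. Among 20930 other protein-coding genes with at least 20 such bases, 28 (0.134%) held one. The most frequent form, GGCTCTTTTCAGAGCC, occurred in 26 members, and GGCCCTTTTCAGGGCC occurred in 7, all of them H4 genes. The sequences of members that the later comparisons turn on are given here with the element in capitals and 5 bases on each side, read 5′ to 3′ on the strand of the gene (GRCm38).
Hist1h1d, chr13:23555782-23555807, plus strand: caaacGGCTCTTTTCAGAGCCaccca
Hist1h1c, chr13:23739507-23739532, plus strand: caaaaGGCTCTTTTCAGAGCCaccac
Hist1h3d, chr13:23576239-23576264, plus strand: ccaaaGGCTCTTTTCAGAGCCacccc
Hist1h3e, chr13:23561898-23561923, minus strand: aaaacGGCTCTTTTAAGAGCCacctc
Hist1h4a, chr13:23760795-23760820, minus strand: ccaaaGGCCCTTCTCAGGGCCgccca
Hist1h4c, chr13:23698084-23698109, minus strand: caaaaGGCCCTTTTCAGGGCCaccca
Hist1h4d, chr13:23581945-23581970, plus strand: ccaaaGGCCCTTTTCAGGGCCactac
Hist1h4h, chr13:23531453-23531478, plus strand: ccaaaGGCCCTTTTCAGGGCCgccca
The H4 elements shown pair GGCCC with GGGCC, and the H1 and H3 elements shown pair GGCTC with GAGCC.

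Levels of the members spanned the whole range from 0 to 426 normalized counts in a single library. In the mean over the 17 libraries, 23 members were above 20 normalized counts and 36 were under 5. The 12 members with the highest means made up 79.3% of the summed level. H4 genes held 40.7% of it, H1 genes 25.9%, H2B genes 18%, H2A genes 10.5% and H3 genes 4.92%. By cluster, Hist1 held 73.3%, Hist3 10.6%, Hist2 9.56% and the single gene of Hist4 6.6%. The highest means belonged to Hist1h4d (274), the H1 genes Hist1h1c (251) and Hist1h1e (244), Hist3h2a (207) and Hist1h4c (198), followed by Hist4h4 (167), Hist1h2bc (158), Hist1h4h (142), Hist2h2be (98.2), Hist2h4 (96.1), Hist1h1d (90.4) and Hist1h2be (79.2). The highest H3 gene was Hist1h3e, with a mean of 37. Divided by exon length, the order changed: per kb of exon the mean level was 302 normalized counts for Hist1h4h, 242 for Hist1h4c, 241 for Hist1h4d, 161 for Hist1h1c, 137 for Hist1h2bc and 126 for Hist1h1e, against 12.2 for Hist1h1d, whose annotated model of 7425 exon bases is far longer than an H1 coding sequence.

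Levels were set beside the annotation of each gene. Of the 23 members above 20 normalized counts, 19 had a stem-loop and 15 had over 100 annotated bases after it, so that their gene models include transcripts that continue past the histone 3′ end. Of the 23 members above 0 and up to 5 normalized counts, 16 had a stem-loop and 3 had over 100 bases after it. Gene counts do not show whether a read lay before or after the stem-loop. Histone coding sequences are near copies of each other, and reads placed at several loci do not pass a mapping quality limit as the authors used. The median member had 45.9% of its 50-base exon windows in no other annotated gene, and this median was 71.1% in the 23 highest members, 39.6% in those above 0 and up to 5, and 6.5% in the 13 members at 0. In 5 members every window was shared with another gene, and in 4 none was. The windows were compared with annotated transcripts and not with the whole genome. A low or zero count of a member with few windows of its own therefore does not show that the gene is silent.

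**Figure D1:**
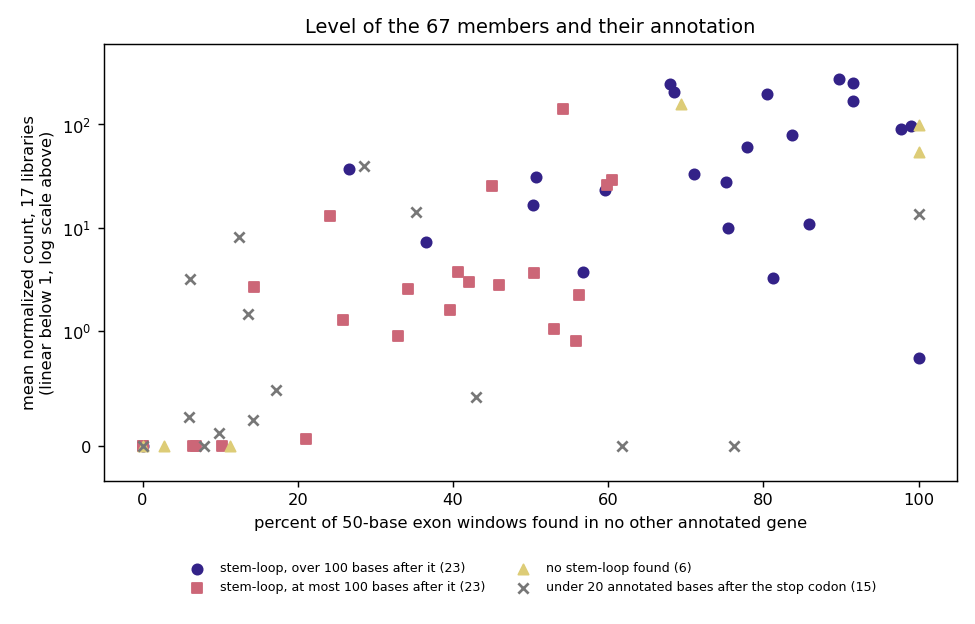
Mean normalized count over the 17 libraries (linear below 1, log scale above) against the percentage of 50-base exon windows that occur in no other annotated gene, for the 67 members. Symbols separate members with over 100 annotated bases after the stem-loop (23), with at most 100 (23), with no stem-loop found (6) and with under 20 annotated bases after the stop codon (15), and the members at 0 lie mostly at the left.

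The values of the 5 highest members by library are given for orientation. Hist1h4d (chr13:23581598-23582735) had 409.8, 426 and 257 normalized counts in Control Sal, 327, 237 and 221 in Control PTZ0, 218 and 271 in Control PTZ45, 238, 322 and 406 in CBP-ifKO Sal, 230.1, 319.8 and 171 in CBP-ifKO PTZ0, and 168, 211 and 224 in CBP-ifKO PTZ45. The genotypes overlapped widely. Hist1h1c (chr13:23738808-23740367), a linker histone gene, had 289.9, 295 and 196 in Control Sal, 267, 259 and 256 in Control PTZ0, 258 and 183 in Control PTZ45, 263, 268 and 329 in CBP-ifKO Sal, 195, 218 and 245 in CBP-ifKO PTZ0, and 224, 224 and 291 in CBP-ifKO PTZ45. Its means were equal in the genotypes, at 251 ± 40.7 (SD, n = 8) in Control and 251 ± 41.6 (SD, n = 9) in CBP-ifKO. Hist1h1e (chr13:23620629-23622558), another linker histone gene, had 253, 299 and 196 in Control Sal, 251, 246 and 248 in Control PTZ0, 235 and 264 in Control PTZ45, 233, 264 and 301 in CBP-ifKO Sal, 212, 247 and 176 in CBP-ifKO PTZ0, and 195, 236 and 289 in CBP-ifKO PTZ45. Its exons overlap those of Hist1h2be on the same strand, so reads of the overlap cannot be assigned to one of them with certainty.

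Hist3h2a (chr11:58954685-58956830), the highest H2A gene, had 195, 201 and 189.8 in Control Sal, 174, 193 and 221 in Control PTZ0, 186 and 202 in Control PTZ45, 206, 255 and 224 in CBP-ifKO Sal, 208, 250.1 and 222 in CBP-ifKO PTZ0, and 237, 164 and 186 in CBP-ifKO PTZ45. It overlaps Trim17 on the same strand. Hist1h4c (chr13:23697635-23698454), an H4 gene, had 307, 259 and 208 in Control Sal, 198, 166 and 165 in Control PTZ0, 135 and 128 in Control PTZ45, 174, 303 and 284 in CBP-ifKO Sal, 230.1, 211 and 136 in CBP-ifKO PTZ0, and 159, 142 and 166 in CBP-ifKO PTZ45. In both genotypes its PTZ45 libraries lay below all Sal libraries. Within groups, the variance ratio of the 23 highest members, which is 1 for pure counting noise, ran from 0.583 in Hist2h2be to 19.1 in Hist1h4d with a median of 2.25, and was over 2 in 14 of them.

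The summed level of all 67 members did not separate the genotypes over all treatments. The sum was 3154, 3188 and 2452 normalized counts in Control Sal, 2638, 2481 and 2564 in Control PTZ0, 2489 and 2458 in Control PTZ45, 2332, 2882 and 3139.9 in CBP-ifKO Sal, 2196, 2589 and 2045 in CBP-ifKO PTZ0, and 2079.7, 1990.3 and 2272 in CBP-ifKO PTZ45. It averaged 2678 ± 311 (SD, n = 8) in Control and 2392 ± 399 (SD, n = 9) in CBP-ifKO, which is 89.3% of Control and a difference smaller than either SD. These SDs also hold the differences between treatments. In PTZ45 every CBP-ifKO library lay below both Control libraries, which were sequenced in another lane, and in Sal and PTZ0 the genotypes overlapped. By group, the mean was highest in Control Sal (2931 ± 416, SD, n = 3) and CBP-ifKO Sal (2785 ± 413, SD, n = 3) and lowest in CBP-ifKO PTZ45 (2114 ± 144, SD, n = 3). The lane means were 2746 in lane 3, 2660 in lane 4 and 2195 in lane 5. Among the 23 highest members, the highest of the 6 group means was in Control Sal for 11, and the lowest was in CBP-ifKO PTZ45 for 11, in CBP-ifKO PTZ0 for 7 and in Control PTZ45 for 4.

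**Figure D2:**
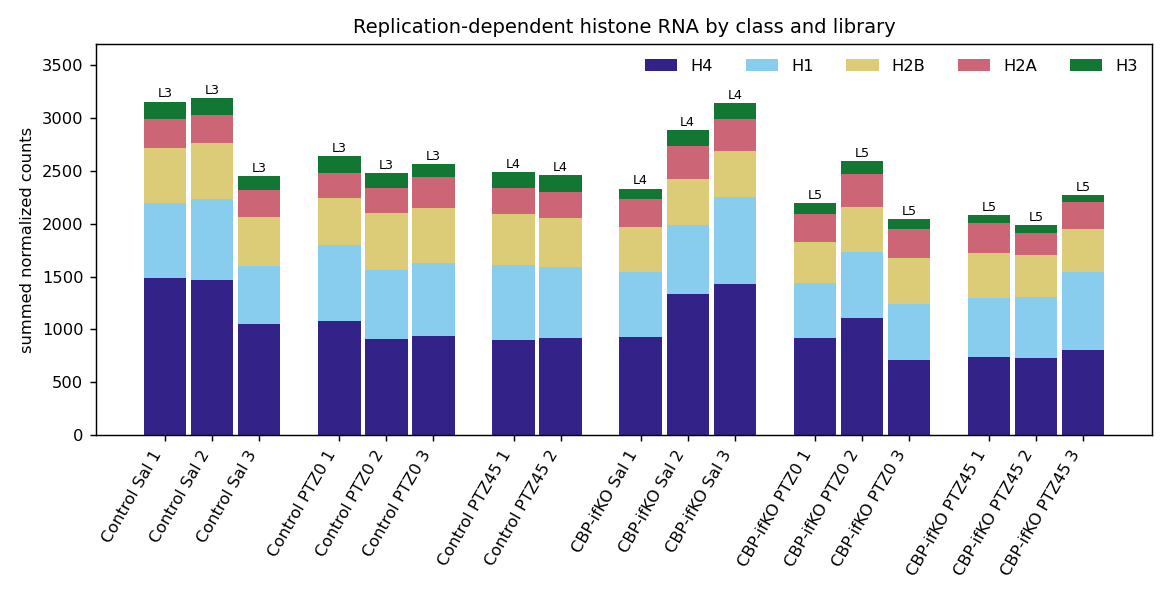
Summed normalized counts of the members in each of the 17 libraries, stacked by histone class, with the sequencing lane (L3 to L5) above each bar. H4 takes the largest share in every library, and the total runs from 1990.3 in a CBP-ifKO PTZ45 library to 3188 in a Control Sal library.

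By class, the summed H2B genes averaged 495 ± 37.5 normalized counts (SD, n = 8) in Control and 419 ± 18.2 (SD, n = 9) in CBP-ifKO (84.7%), and no CBP-ifKO library was above the lowest Control library (Control 439.8 to 532, CBP-ifKO 389 to 435). The summed H3 genes averaged 147 ± 14.5 in Control and 104 ± 29.9 in CBP-ifKO (71%), and the 3 CBP-ifKO PTZ45 libraries (72.5, 78 and 70.7) were the lowest of all. Single libraries of the genotypes overlapped in H3 (Control 120.0 to 161, CBP-ifKO 70.7 to 151) and in the other classes: H1 genes summed to 684 ± 65.4 and 627 ± 96.9, H2A genes to 258 ± 17.2 and 274 ± 32.7, and H4 genes to 1095 ± 246 and 968 ± 268.

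The loss of CBP was compared over all treatments with DESeq2 (genotype and treatment as terms, 17 libraries, Benjamini-Hochberg adjustment over all genes tested, and a call at an adjusted p under 0.05). Of the 29 members with an adjusted p, 6 were called, all of them lower in CBP-ifKO: Hist1h1d, Hist1h3e, Hist1h3d, Hist1h2bc, Hist1h4h and Hist1h4a. That is 1 of 5 H1 genes tested, 0 of 4 H2A genes, 1 of 6 H2B genes, 2 of 3 H3 genes and 2 of 11 H4 genes. Over all 18682 genes tested, 19.3% were called in either direction and 11.5% were called lower, so the members' share stands beside a broad change between the genotypes. The members' median log2 fold change was −0.22 and that of all genes tested was 0.01, with 22 of the 29 members below 0. An unadjusted p under 0.05 was found for 14 of the 54 members with a count, all lower, and for 15.2% of all genes fitted.

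**Figure D3:**
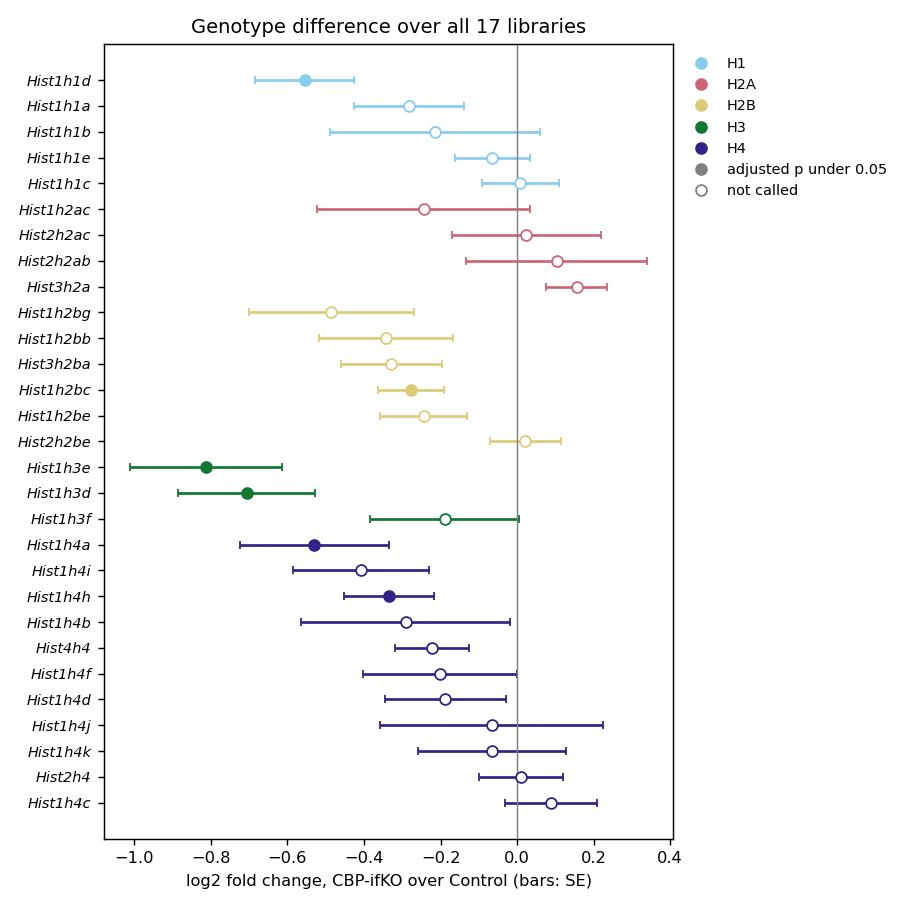
Log2 fold change of CBP-ifKO over Control for the 29 members with an adjusted p, with SE bars, grouped by histone class; filled symbols mark the 6 members called by DESeq2. The called members lie between −0.81 (Hist1h3e) and −0.28 (Hist1h2bc), whereas Hist1h1c, Hist2h4 and Hist2h2be lie near 0.

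Hist1h1d encodes the linker histone H1.3, and the exons counted for it span chr13:23553262-23560686. It had 96.6, 106 and 92.2 normalized counts in Control Sal, 123, 93.7 and 103 in Control PTZ0, 122 and 129 in Control PTZ45, 75.6, 83 and 109 in CBP-ifKO Sal, 64.5, 72.6 and 47.3 in CBP-ifKO PTZ0, and 79.9, 59 and 80.2 in CBP-ifKO PTZ45. In PTZ0 and in PTZ45 every CBP-ifKO library lay below every Control library, and in Sal the genotypes overlapped through 1 CBP-ifKO mouse. The level averaged 108 ± 14.6 (SD, n = 8) in Control and 74.5 ± 17.3 (SD, n = 9) in CBP-ifKO, a log2 difference of −0.56 (SE 0.13, DESeq2 adjusted p = 0.00033).

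The H3 genes Hist1h3e and Hist1h3d encode the same class of core histone and both fell. Hist1h3e (chr13:23561534-23562369) had 49.1, 57.9 and 37.1 normalized counts in Control Sal, 45.6, 39.8 and 38.1 in Control PTZ0, 56.6 and 57.6 in Control PTZ45, 30.1, 39.4 and 45.1 in CBP-ifKO Sal, 28, 31.5 and 27.6 in CBP-ifKO PTZ0, and 12.6, 21 and 11.8 in CBP-ifKO PTZ45. The genotypes overlapped in Sal and were separate in PTZ0 and PTZ45. Its log2 fold change was −0.81 (SE 0.20, DESeq2 adjusted p = 0.000647), and only 26.6% of its exon windows occur in no other gene, so its count rests on a small part of the transcript. Hist1h3d (chr13:23575763-23577011) had 32.7, 34.5 and 39.8 in Control Sal, 36, 41 and 26.7 in Control PTZ0, 36.3 and 33.7 in Control PTZ45, 17.9, 33.2 and 26.6 in CBP-ifKO Sal, 17, 25.8 and 20.5 in CBP-ifKO PTZ0, and 23.1, 12 and 20 in CBP-ifKO PTZ45. It averaged 35.1 ± 4.44 (SD, n = 8) in Control and 21.8 ± 6.22 (SD, n = 9) in CBP-ifKO, which is −0.71 on the log2 scale (SE 0.18, DESeq2 adjusted p = 0.00109).

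Hist1h2bc (chr13:23684199-23692908) was the only H2B gene called. It had 185, 185 and 157 normalized counts in Control Sal, 143, 212 and 184 in Control PTZ0, 149 and 187 in Control PTZ45, 147, 133 and 148 in CBP-ifKO Sal, 131, 133 and 160.1 in CBP-ifKO PTZ0, and 144, 147 and 143 in CBP-ifKO PTZ45. The log2 fold change was −0.28 (SE 0.086, DESeq2 adjusted p = 0.0104), and the CBP-ifKO libraries varied less (SD 9.3) than the Control libraries (SD 23.3). Its annotated model held no stem-loop. Other H2B genes with a sizeable mean were Hist3h2ba with −0.33 (adjusted p = 0.0638) and Hist1h2be with −0.24 (adjusted p = 0.119), which did not pass, and Hist2h2be with 0.02.

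Among the H4 genes, Hist1h4h (chr13:23531050-23531519) had 200.2, 234 and 151 normalized counts in Control Sal, 145, 142 and 146 in Control PTZ0, 141 and 126 in Control PTZ45, 131, 156 and 204 in CBP-ifKO Sal, 111, 147 and 103 in CBP-ifKO PTZ0, and 68.3, 112 and 93.1 in CBP-ifKO PTZ45. The genotypes overlapped in Sal and PTZ0 and were separate in PTZ45, and CBP-ifKO differed from Control by −0.33 on the log2 scale (SE 0.12, DESeq2 adjusted p = 0.0285). Hist1h4a (chr13:23760692-23761230) had 39.7, 35.7 and 26.2 in Control Sal, 29, 18.7 and 21.9 in Control PTZ0, 26.5 and 25 in Control PTZ45, 20.5, 31.1 and 25.1 in CBP-ifKO Sal, 21.9, 20 and 17.3 in CBP-ifKO PTZ0, and 14.7, 8 and 16.5 in CBP-ifKO PTZ45. Its log2 fold change was −0.53 (SE 0.20, DESeq2 adjusted p = 0.0373). Hist1h4h lost its call in 10 and Hist1h4a in 14 of 25 alternative analyses. Leaving out 1 library was enough in 6 cases for Hist1h4h (Control Sal replicate 2, CBP-ifKO Sal replicate 1, CBP-ifKO PTZ0 replicate 3, CBP-ifKO PTZ45 replicate 1 and either Control PTZ45 library, log2 fold changes from −0.33 to −0.28, adjusted p from 0.0513 to 0.0898) and in 9 for Hist1h4a (Control Sal replicates 1 and 2, CBP-ifKO Sal replicates 1 and 3, Control PTZ0 replicate 1, CBP-ifKO PTZ0 replicate 3, CBP-ifKO PTZ45 replicate 2 and either Control PTZ45 library, log2 fold changes from −0.54 to −0.45, adjusted p from 0.0501 to 0.106). The other H4 genes among the 12 highest members were not called: Hist1h4d had −0.19 (adjusted p = 0.46), Hist4h4 −0.22 (adjusted p = 0.09), Hist1h4c 0.09 and Hist2h4 0.01. Hist3h2a, the highest H2A gene, had 0.16 (adjusted p = 0.17).

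**Figure D4:**
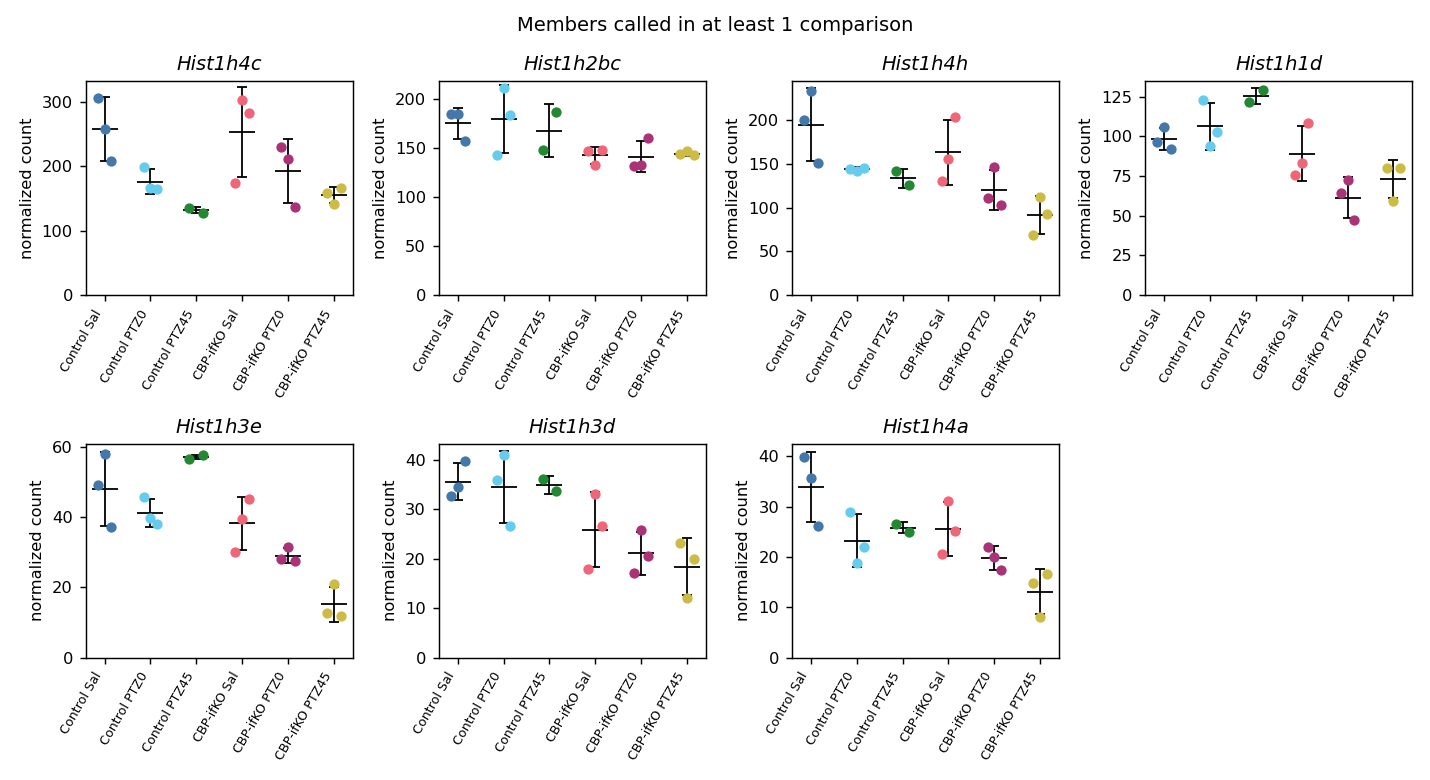
Normalized counts of the 7 members called in at least 1 comparison, 1 point per library, with the mean and SD of each of the 6 groups; each panel starts at 0 and has its own scale. The CBP-ifKO PTZ45 points of Hist1h3e (11.8 to 21) lie far below the Control PTZ45 points (56.6 and 57.6).

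Lane 4 is the only lane with libraries of both genotypes, Control PTZ45 and CBP-ifKO Sal, which also differ in treatment and were part of the calls above. There, Hist1h1d, Hist1h3e, Hist1h3d and Hist1h2bc were lower in every CBP-ifKO library than in both Control libraries, and Hist1h4h and Hist1h4a overlapped. Over the 23 members with a mean of at least 20, 5 were lower in CBP-ifKO without overlap, Hist1h1a being the other one, and 4 were higher without overlap (Hist1h1c, Hist3h2a, Hist1h4c and Hist1h4k). Of all genes with a mean of at least 20, 19.7% were lower and 16.3% higher without overlap. With the lane as a further term, an analysis added after seeing the data, DESeq2 called 0.799% of all genes tested and 0 members, with an unadjusted p under 0.05 for 3. Beside lane 4, this fit uses the treatment changes inside lanes 3 and 5 and takes treatments to act alike in both genotypes. A genotype difference that depends on PTZ therefore enters its estimates, and the design can hardly separate genotype from lane. Hist1h3e then had a log2 fold change of −1.72 (adjusted p = 0.125), Hist1h4a −1.20 (adjusted p = 0.843), Hist1h4h −0.54 (adjusted p = 0.984), and Hist1h3d −0.78, Hist1h2bc −0.16 and Hist1h1d −0.10 (each with an adjusted p of 1).

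Marker RNAs of some cell types differed between the genotypes as well, and those of others did not. Markers of choroid plexus, the secretory epithelium of the ventricles, stood apart in 5 libraries: Control Sal replicate 2, Control PTZ0 replicate 2, CBP-ifKO Sal replicate 1, CBP-ifKO PTZ0 replicate 3 and CBP-ifKO PTZ45 replicate 2 had summed levels of 10809 to 44283 normalized counts, and the other libraries at most 1122. Without these 5 libraries, an analysis added after seeing the data, 2 members were called lower over all treatments, Hist1h1d (−0.43, adjusted p = 0.0299) and Hist1h3e (−0.82, adjusted p = 0.0209), where 11.8% of all genes were called, and 0 members were called in PTZ0, where 1.04% were called and Hist1h1d had −0.71 (adjusted p = 0.532). The log2 fold changes of the other 4 members called with all libraries were −0.51 for Hist1h3d (adjusted p = 0.123), −0.27 for Hist1h2bc (adjusted p = 0.0923), −0.26 for Hist1h4h (adjusted p = 0.241) and −0.42 for Hist1h4a (adjusted p = 0.292). The 3 markers of oligodendrocyte precursors, cells that still divide, were all called lower in CBP-ifKO, with a summed level of 1695 ± 64.6 (SD, n = 8) in Control and 1379 ± 66.7 (SD, n = 9) in CBP-ifKO. Of the neuroblast markers, 1 of 3 tested was called lower (Sox11, −0.53), with sums from 737 to 1014 in Control and from 607 to 785 in CBP-ifKO. None of the 4 microglial, 4 endothelial or 4 red blood cell markers was called between the genotypes over all treatments, and in PTZ0 the beta-globin gene Hbb-bs was called lower in CBP-ifKO (−0.34, DESeq2 adjusted p = 0.0322). Among neuronal markers, 3 of 4 for pyramidal cells were called lower, and of 4 for granule cells 1 was called lower and 1 higher. The part of these cells in the histone results was not tested.

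Within single treatments, fewer members were called, and these comparisons use 5 or 6 libraries each. In Sal, 0 of 23 members with an adjusted p were called by DESeq2, with 0 at an unadjusted p under 0.05 (4.73% of all genes fitted) and 0 called by edgeR, where 2.04% of all genes were called. In PTZ0, 1 of 14 members was called, Hist1h1d at −0.81 on the log2 scale (SE 0.23, adjusted p = 0.014), where 6.68% of all genes were called. In PTZ45, 1 of 19 was called, Hist1h3e with −1.90 (SE 0.45, adjusted p = 0.00182), where 3.07% of all genes were called. Hist1h1d had −0.78 in PTZ45 (adjusted p = 0.0736). The PTZ0 call had an adjusted p of 0.272, 0.0527 and 0.106 without Control PTZ0 replicates 1, 2 and 3 and 0.241 without CBP-ifKO PTZ0 replicate 3, with log2 fold changes of −0.69, −0.88, −0.83 and −0.63. The PTZ45 call had a log2 fold change of −1.90 and an adjusted p of 0.221 without Control PTZ45 replicate 2, where the 1 Control library left is assumed to vary like the CBP-ifKO libraries. Without Control PTZ45 replicate 1 (−1.92, again with 1 Control library) or CBP-ifKO PTZ45 replicate 1 (−1.78) DESeq2 gave an unadjusted but no adjusted p. Whether the genotype difference depended on PTZ was tested as an interaction over Sal and PTZ45: 0 of 31 members were called by DESeq2 and 0 by edgeR, 2 had an unadjusted p under 0.05, against 1.1% of all genes fitted (Hist1h3e −1.57, adjusted p = 0.342, and Hist1h1d −0.66, adjusted p = 1), and 0.329% of all genes were called.

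Kindling and the last PTZ injection were compared next within each genotype. In Control mice, PTZ45 against Sal called 1 of 27 members, the H4 gene Hist1h4c, which fell from 258 ± 49.5 (SD, n = 3) to 132 ± 5.02 (SD, n = 2) normalized counts. Its log2 fold change was −0.97 (SE 0.20, DESeq2 adjusted p = 0.000166), and 1.17% of all genes were called. Without Control PTZ45 replicate 2 the log2 fold change was −0.93 and the adjusted p 0.0844, where the 1 PTZ45 library left is assumed to vary like the Sal libraries. Of the 10 H4 genes with an adjusted p, 9 were below 0, with a median log2 fold change of −0.56. An unadjusted p under 0.05 was found for 4.03% of all genes fitted and for 5 members, the H4 genes Hist1h4c, Hist1h4d (−0.58), Hist1h4h (−0.54) and Hist1h4k (−0.97) on the lower side and the H1 gene Hist1h1a (0.63) on the higher side. In CBP-ifKO mice, PTZ45 against Sal called 0 of 30 members with DESeq2 and 0 with edgeR, where 0.294% of all genes were called. This count was 3 (Hist1h4h, Hist1h4d and Hist1h4c) without CBP-ifKO Sal replicate 1, which had the lowest H4 sum of its group and the most choroid plexus RNA of all libraries, 1 with TMM factors and 2 with 1 fit of all libraries. With all libraries, 9 members had an unadjusted p under 0.05, all lower and 7 of them H4 genes, against 2.46% of all genes fitted. All 11 H4 genes with an adjusted p were below 0, with a median of −0.69. The lowest adjusted p-values were those of Hist1h4h (−0.85, adjusted p = 0.0808), Hist1h4d (−0.68, adjusted p = 0.0907) and Hist1h4c (−0.69, adjusted p = 0.139). Markers of other cells moved with PTZ in Control: the 4 red blood cell markers summed to 907 ± 103 (SD, n = 3) in Sal and 1375 ± 191 (SD, n = 2) in PTZ45, all 4 were above 0 and 1 was called higher (the beta-globin gene Hbb-bs, 0.62, DESeq2 adjusted p = 9.53e-05). The neuroblast markers summed to 783 ± 51.8 and 989 ± 35.2, and both with an adjusted p, Sox11 (0.39, adjusted p = 0.215) and Dcx (0.28, adjusted p = 0.56), were above 0 and not called. In CBP-ifKO, 0 of 4 red blood cell and 0 of 3 neuroblast markers were called by DESeq2. The part of these cells in the PTZ results was not tested.

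The comparisons inside lanes 3 and 5 had no calls. Within lane 3, Control PTZ0 against Sal called 0 of 53 members with DESeq2 and 0 with edgeR, and 0.00843% of all genes. The 4 members with an unadjusted p under 0.05 (0.581% of all genes fitted) were H4 genes and lower (Hist1h4c −0.55, Hist1h4h −0.43, Hist1h4f −0.78 and Hist1h4k −0.67, each with an adjusted p of 1), and all 12 H4 genes were below 0 with a median of −0.54. All 6 H1 genes were above 0. Within lane 5, CBP-ifKO PTZ45 against PTZ0 called 0 of 42 members with DESeq2 and 0 with edgeR, and 0.0872% of all genes, with 2 members and 1.58% of all genes fitted at an unadjusted p under 0.05. Across lanes, CBP-ifKO PTZ0 against Sal called 0 of 52 members with DESeq2 and 0 with edgeR, and 0.0112% of all genes, with 5 members and 0.336% of all genes fitted at an unadjusted p under 0.05. These members were all lower, the H1 genes Hist1h1d (−0.55), Hist1h1c (−0.39) and Hist1h1e (−0.33) and the H4 genes Hist4h4 (−0.50) and Hist1h4h (−0.44), each with an adjusted p of 1. Of the 6 H1 genes, 3 were above and 3 below 0 there, and all 12 H4 genes were below 0 with a median of −0.41. Control PTZ45 against PTZ0 called 0 of 28 members with DESeq2 and 0 with edgeR, and 1.25% of all genes, with 1 member (Hist1h4c, −0.43) and 4.47% of all genes fitted at an unadjusted p under 0.05. Comparisons with Sal of 1 genotype share their Sal libraries. Of the other RNAs without a poly(A) tail, 7 of 8 lay below 0 in Control PTZ0 against Sal (median log2 fold change −0.37), 7 of 8 in CBP-ifKO PTZ0 against Sal (−0.30), 5 of 6 in Control PTZ45 against Sal (−0.12) and 6 of 6 in CBP-ifKO PTZ45 against Sal (−0.31), with 0 called by DESeq2 in each. Between PTZ45 and PTZ0, 4 of 6 lay above 0 in Control (0.21), where Rny3 was called higher (0.45, DESeq2 adjusted p = 8.9e-07), and 3 of 7 in CBP-ifKO (−0.16), where 0 were called.

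The summed H4 level was 1491, 1464 and 1056 normalized counts in Control Sal, 1082, 908 and 938 in Control PTZ0, 898 and 921 in Control PTZ45, 926, 1336 and 1433 in CBP-ifKO Sal, 918, 1108 and 709.7 in CBP-ifKO PTZ0, and 742, 729 and 810.0 in CBP-ifKO PTZ45. Control PTZ45 lay below every Control Sal library, and CBP-ifKO PTZ45 below every CBP-ifKO Sal library. Summed H1 was 673 ± 115 in Control Sal (SD, n = 3), 690.2 ± 30.2 in Control PTZ0 (SD, n = 3) and 690.4 ± 32.9 in Control PTZ45 (SD, n = 2). In CBP-ifKO it was 697 ± 105 in Sal, 558 ± 55 in PTZ0 and 624 ± 94.1 in PTZ45 (SD, n = 3 each). The difference between classes was not tested.

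Other RNAs without a poly(A) tail were followed beside the members. Rpph1, the RNA of RNase P, had 901, 797 and 490.0 normalized counts in Control Sal, 488, 539 and 538 in Control PTZ0, 555 and 337 in Control PTZ45, 418, 730.4 and 842 in CBP-ifKO Sal, 718, 498 and 369 in CBP-ifKO PTZ0, and 324, 397 and 558 in CBP-ifKO PTZ45. The 4 libraries with the most Rpph1 also had the most H4 RNA, while CBP-ifKO PTZ0 replicate 1, next in Rpph1, had an H4 sum of 918. Over the 17 libraries, the log2 values of summed H4 and Rpph1 had Pearson's r = 0.805 (two-sided permutation p = 0.00017, adjusted p = 0.0015 over 12 relations) and Spearman's rho = 0.637 (permutation p = 0.00733, adjusted p = 0.018). These p-values take no account of group or lane. Without the 2 libraries farthest from the median H4 level r was 0.71, and without the Sal libraries 0.468. Within groups it was 0.698, and within lanes 3, 4 and 5 it was 0.881, 0.863 and 0.615. For the sum of all members r was 0.775 with Rpph1 and 0.714 with Rn7sk, the 7SK RNA that restrains transcription elongation, and 0.168 with the minor spliceosomal Rnu12, while H4 and Rnu12 gave 0.163. The summed H4 level had r = 0.725 with Vaultrc5, 0.643 with Rn7sk, 0.622 with Rny1 and 0.5 with Rny3. Of 6 such RNAs tested, 1 (Rn7sk, −0.19, adjusted p = 0.0016) was called lower in CBP-ifKO over all treatments. The part of these RNAs in the histone differences was not tested.

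**Figure D5:**
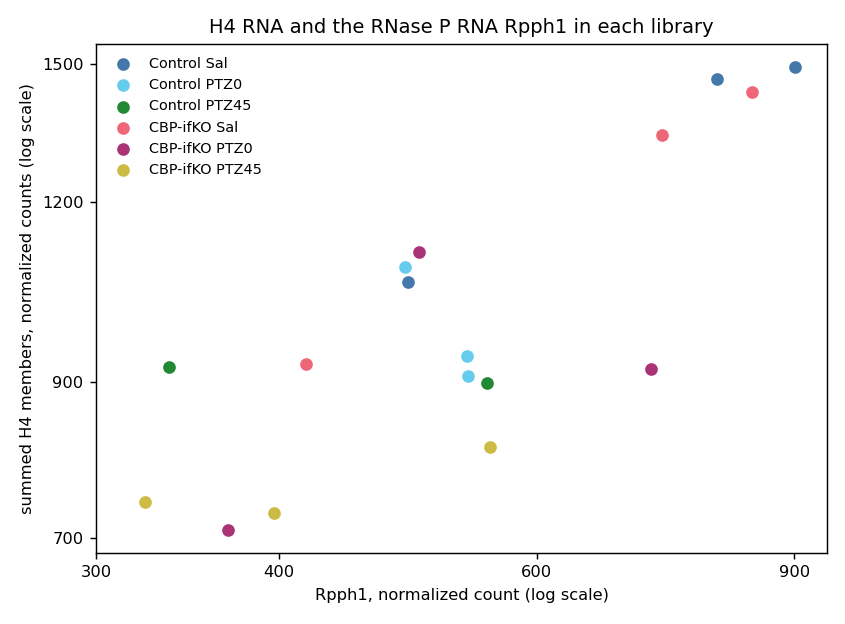
Summed H4 members against Rpph1 in each of the 17 libraries, both in normalized counts on log scales, coloured by group. The 4 libraries with the most H4 RNA (2 Control Sal, 2 CBP-ifKO Sal) are also the 4 with the most Rpph1.

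Genes that act on histone mRNA or in S phase were examined from lists chosen for their function. Of 17 histone mRNA processing genes, 1 was called over all treatments: Lsm11, the U7 snRNP subunit, had 658, 689 and 639 normalized counts in Control Sal, 676, 648 and 737 in Control PTZ0, 689 and 532 in Control PTZ45, 393, 353 and 404 in CBP-ifKO Sal, 500.4, 412 and 415 in CBP-ifKO PTZ0, and 438, 414 and 446 in CBP-ifKO PTZ45. All 9 CBP-ifKO libraries lay below all 8 Control libraries, at 63.7% of the Control mean, and the log2 difference was −0.65 (SE 0.062, DESeq2 adjusted p = 3.89e-23). Lsm11 was called lower in each treatment as well, with −0.78 in Sal (adjusted p = 2.64e-09), −0.64 in PTZ0 (adjusted p = 1.14e-07) and −0.50 in PTZ45 (adjusted p = 0.0196). Slbp, which encodes the stem-loop binding protein, averaged 189 ± 19.8 (SD, n = 8) in Control and 200.2 ± 18.4 (SD, n = 9) in CBP-ifKO and was not called. Of the 23 S phase genes with an adjusted p, 3 were called lower (Mki67 −0.34, Pola1 −0.24 and Mcm4 −0.20) and 3 higher (Prim1 0.47, Ccne2 0.29 and Mcm6 0.25). In PTZ45 against Sal, 0 of 20 S phase genes in Control and 0 of 26 in CBP-ifKO were called by DESeq2.

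Replacement histones, which are made outside S phase from polyadenylated mRNA, were followed under PTZ as well. H3f3b, a gene for H3.3, rose in PTZ45 against Sal by 0.59 on the log2 scale in Control (DESeq2 adjusted p = 0.000218) and by 0.40 in CBP-ifKO (adjusted p = 0.0293). Cenpa, the centromeric H3 variant, rose in Control from 16 ± 3.25 (SD, n = 3) to 132 ± 27 (SD, n = 2) normalized counts (log2 fold change 3.07, adjusted p = 8.81e-17), and its mean in CBP-ifKO PTZ45 was 15.4 ± 7.45 (SD, n = 3). The interaction of genotype and PTZ45 was called for Cenpa (−2.65, adjusted p = 0.00472). Over all treatments, Cenpa was the only one of 11 replacement histone genes called between the genotypes (−1.47, adjusted p = 0.00466). That fit takes the genotype difference as the same in every treatment, so the rise in the 2 Control PTZ45 libraries enters it. In Sal, 0 of 9 replacement histone genes were called between the genotypes, with 0 at an unadjusted p under 0.05. Called lower in CBP-ifKO were 1 of 9 in PTZ0 and 1 of 10 in PTZ45.

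The promoters of the members share short elements that the membership rule did not use. Promoters of 62 of the 67 members were matched in RefSeq (GRCm38.p6), without Hist1h2bc, Hist1h3a, Hist1h3f, Hist2h2be and Hist2h4. Exact matches were searched on both strands in the 250 bases before the start. The CCAAT box was present in 82.3% of the members and in 34.5% of 27025 promoters of all genes, TATAAA in 46.8% against 13%, the octamer ATTTGCAT in 21% against 1.61% and the H1 box AAACACA in 14.5% against 6.22%. By class, the octamer was found in 38.9% of H2A and 37.5% of H2B genes and in no H1, H3 or H4 gene, the H1 box in 83.3% of H1, 11.1% of H2A and 12.5% of H2B genes and in no H3 or H4 gene, and CCAAT in all H1, H2A and H2B genes, 80% of H3 genes and 25% of H4 genes. TATAAA was found in every class, from 38.9% of H2A to 66.7% of H1 genes. Windows of neighbouring H2A and H2B genes on opposite strands can overlap, so the same site can count for both genes. This holds for the octamers of Hist1h2ae and Hist1h2bg, of Hist1h2ah and Hist1h2bk, and of Hist1h2aa and Hist1h2ba. The last pair also shares its H1 box.

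The last 130 bases before the start are shown for 3 linker histone genes, of which only Hist1h1d was called, and for the H3 gene with the largest genotype difference and an H4 gene that was called. Capitals mark the H1 box, CCAAT and TATAAA, on either strand (GRCm38.p6, 5′ to 3′ on the strand of the gene).
Hist1h1d, chr13:23554902-23555031, plus strand: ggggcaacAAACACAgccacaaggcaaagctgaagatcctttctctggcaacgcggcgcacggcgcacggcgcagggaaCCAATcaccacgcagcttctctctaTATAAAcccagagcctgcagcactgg
Hist1h1e, chr13:23622559-23622688, minus strand: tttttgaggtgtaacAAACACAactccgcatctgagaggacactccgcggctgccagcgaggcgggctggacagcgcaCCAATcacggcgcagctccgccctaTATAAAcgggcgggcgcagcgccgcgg
Hist1h1c, chr13:23738677-23738806, plus strand: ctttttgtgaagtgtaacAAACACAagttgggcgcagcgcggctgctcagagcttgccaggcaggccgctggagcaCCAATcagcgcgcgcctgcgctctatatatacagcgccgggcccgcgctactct
Hist1h3e, chr13:23562386-23562515, minus strand: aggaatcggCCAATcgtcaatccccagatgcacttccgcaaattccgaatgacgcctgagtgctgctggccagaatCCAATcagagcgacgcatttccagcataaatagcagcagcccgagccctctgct
Hist1h4h, chr13:23530914-23531043, plus strand: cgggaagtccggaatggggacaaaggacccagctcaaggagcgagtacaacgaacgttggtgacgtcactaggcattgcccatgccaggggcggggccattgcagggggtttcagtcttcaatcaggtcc
The H1 box and the CCAAT box lie at nearly the same distance in the 3 linker histone genes, at 122 and 51 bases before the start in Hist1h1d, 115 and 52 in Hist1h1e, and 112 and 54 in Hist1h1c. Hist1h1d and the uncalled Hist1h1e also share TATAAA at 26 and 27 bases. The RefSeq start of Hist1h1d lies inside the longer gene model used for counting. Hist1h4h held none of the elements in 250 bases, which says only that these letters do not occur there.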

How the data were processed

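Total RNA of 17 hippocampi was sequenced as single-end reads of 50 bases. The authors aligned the reads to mm10 (GRCm38) with STAR 2.6.1, kept reads with a mapping quality over 10 and deposited raw read counts over the exons of each Ensembl gene, and the strand setting is not given in the sources used here. The table also holds 1 count column that matched no sample and was not used. Of the gene identifiers, 99.6% were in the GENCODE M21 annotation. Differences were tested with DESeq2 1.42.0 in R 4.3.3, the method of the study, with a call at an adjusted p under 0.05. Genotype was tested over all treatments and within each, treatments were compared within each genotype, and the interaction with PTZ45 was tested, 11 comparisons in all. Alternatives were edgeR 4.0.16 (quasi-likelihood test), TMM factors, a filter of 10 counts in 2 libraries, 1 fit of all libraries, GC and length corrections, a replicate block and leaving out each library. The fit was tested on simulated data. Each library was 1 mouse, so p-values measure the spread between mice. Values were given for every member called, the 12 with the highest mean and the highest of each class, by library for called members and the 5 highest, and from other lists for called genes and up to 3 further genes. Members and lists were chosen with earlier results of these data known.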

Additional observations from a re-analysis of the deposited data

Results flagged for a closer look

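The H3 gene Hist1h3e moved in opposite directions between PTZ0 and PTZ45 in the 2 genotypes, with no overlap of libraries in either. In Control, PTZ45 (56.6 and 57.6 normalized counts) lay above every PTZ0 library (38.1 to 45.6), a log2 ratio of means of 0.47. In CBP-ifKO, PTZ45 (11.8 to 21) lay below every PTZ0 library (27.6 to 31.5), a log2 ratio of means of −0.94. The difference between these changes was not tested, neither change was called by DESeq2 or edgeR, the Control groups were sequenced in different lanes and the CBP-ifKO groups in the same lane. Of 32 checks, 0 found a library set apart from the others of its genotype by more than Dixon's limit. They covered the summed level and 15 members: those called, the 12 with the highest mean and the highest of each class. Treatments were pooled, so a library set apart only within its group could be missed. Other members named in the text were not checked. Among these, Hist3h2ba had 89.2 normalized counts in CBP-ifKO Sal replicate 2 and 40.2 to 59.9 in the other CBP-ifKO libraries.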

How the results depend on the processing

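Over all treatments, 6 members were called lower; the count was 0 with lane as a term and 2 without the libraries with choroid plexus RNA, both chosen after seeing the data, and ran from 4 to 8 when 1 library was left out. With edgeR it was 7, with TMM factors 6, with the filter 6, with GC or length correction 4 and with the replicate block 5. Hist1h1d and Hist1h3e lost their call in 1 of 25 alternatives each (lane), Hist1h3d and Hist1h2bc in 2 (lane, choroid plexus). The genotype difference in PTZ0 (1 call) went to 0 with the replicate block, to 0 without the choroid plexus libraries and to between 0 and 1 with 1 library left out, and Hist1h1d had adjusted p from 0.00562 to 0.532 there, with none given under the block, while its log2 fold change (−0.81) was −0.81 under the block and −0.71 without the choroid plexus libraries. In PTZ45 (1 call) it was 2 with edgeR, 2 with 1 fit of all libraries, 0 with the replicate block (no adjusted p for Hist1h3e, log2 fold change −1.80 against −1.90) and between 0 and 1 with 1 library left out. In PTZ45 against Sal, the Control count (1) lay between 0 and 2, with 2 calls without Control Sal replicate 3, and the CBP-ifKO count (0) was 1 with TMM (Hist1h4h), 2 with 1 fit of all libraries (Hist1h4h, Hist1h3e) and between 0 and 3 with 1 library left out, reaching 3 (Hist1h4h, Hist1h4d, Hist1h4c) without CBP-ifKO Sal replicate 1. The summed level in CBP-ifKO stayed between 89.2% and 91.9% of Control. No log2 fold change of a called member reversed, and the cause of the changed counts was not tested. Samples of the same replicate number correlated from −0.523 to 0.532 in their deviations from the group means, so the numbers did not pair the mice. The 36 members under 5 normalized counts had no adjusted p over all treatments, and 2 of them, Hist1h2ab (−1.26) and Hist1h2bp (−2.14), were lower in CBP-ifKO at an unadjusted p under 0.05.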
